A study of Mus musculus with 6 samples.

Results

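The constitutive proteasome was followed at the transcript level in mouse brown adipocytes with and without the coactivator PGC-1α, and after knockdown of its relative PGC-1β. The genes were chosen by symbol: those of the array annotation that begin with Psma, Psmb, Psmc or Psmd and a digit, leaving out the 3 inducible catalytic subunits Psmb8, Psmb9 and Psmb10. This gave 37 of the 18193 named genes, with 76 probe sets, and each gene was read from its brightest probe set. Of these 37 genes, 34 encode subunits of the proteasome or assembly chaperones that carry a Psmd symbol, and all 34 were bright enough to test. The other 3 were Psma8, a testis-type α subunit, Psmb11, the thymus-specific β subunit, and Psmc3ip, a partner of meiotic recombinases that is no subunit. The mean log2 intensity of Psma8 and Psmb11 over all arrays was below the filter on dim genes (an intensity of 163.6), so 35 genes were tested.

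RNA came from immortalised cell lines of brown fat origin that carried the SV40 large T antigen and had differentiated for 7 days. Wild-type cells formed the first group. Cells without PGC-1α (PGC-1alpha -/-) that expressed a control siRNA formed the second, here called knockout-control, and the same knockout background with an siRNA directed at PGC-1β formed the third, here called knockdown. Each group had 2 arrays, described in the series' design as biological replicates, and the labels do not say whether a line was a single clone or whether wild-type cells carried an siRNA vector. With 2 arrays a group, precision was limited by their number.

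The proteasome degrades proteins tagged with ubiquitin. Its barrel-shaped core is built from rings of α subunits, which gate the entrance, and rings of β subunits, of which Psmb5, Psmb6 and Psmb7 carry the active sites of the standard form. A regulatory particle caps the barrel: its base holds the ATPases Psmc1 to Psmc6, which unfold substrates, and ubiquitin receptors, and its lid holds the deubiquitinase Psmd14 with scaffold subunits. In brown fat the transcription factor NFE2L1 is known to raise proteasome genes during cold exposure, through antioxidant response elements in their promoters.

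Promoter sequence of the 250 bases before the RefSeq gene start (GRCm38.p6) was available for 30 of the 37 genes. The core of the antioxidant response element, TGACNNNGC, searched on both strands, stood in 5 of the 30 (16.7%), those of Psmb5, Psmb6, Psmc6, Psmd9 and Psmd12, against 11.5% of all 27025 genes of the sequence table and 13.5% of those with a probe set. These promoters are shown because Psmc6, Psmb5 and Psmd9 were also the 3 genes with the highest knockout-control to wild-type ratios. Psmb6 and Psmd12 had log2 fold changes of -0.27 and -0.21 in that comparison, and none of the 5 was called in it. The ranks of Psmc6 and Psmd9 rest on their brightest probe sets. Their dimmer probe sets above the filter gave log2 differences of -0.23 and -0.33 for Psmc6 and -0.04 for Psmd9. All motifs were chosen after those values were known, and a match is a description of letters, not a bound site. Capitals mark the core, which in Psmc6 and Psmd12 lies on the opposite strand and far from the start, at 227 to 219 and 247 to 239 bases before it, counted from the start in the sequence table. For Psmc6 that start lies just inside the annotated gene, so 249 of the 250 bases are printed. In Psmb5 and Psmd9 it lies on the gene's own strand at 47 to 39 and 31 to 23 bases before the start. In Psmb6, whose window is not printed, it also lies on the gene's own strand, at 9 to 1 bases before the start. The windows are chr14:54617996-54618245 (minus strand) for Psmb5, chr14:45329574-45329822 (plus strand) for Psmc6, chr5:123227940-123228189 (plus strand) for Psmd9 and chr11:107479278-107479527 (plus strand) for Psmd12.
Psmb5: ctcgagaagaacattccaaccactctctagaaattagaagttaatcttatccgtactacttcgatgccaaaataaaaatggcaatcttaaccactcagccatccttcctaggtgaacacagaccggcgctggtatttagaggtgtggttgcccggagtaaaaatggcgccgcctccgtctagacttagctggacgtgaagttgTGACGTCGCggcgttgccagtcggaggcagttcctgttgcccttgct
Psmc6: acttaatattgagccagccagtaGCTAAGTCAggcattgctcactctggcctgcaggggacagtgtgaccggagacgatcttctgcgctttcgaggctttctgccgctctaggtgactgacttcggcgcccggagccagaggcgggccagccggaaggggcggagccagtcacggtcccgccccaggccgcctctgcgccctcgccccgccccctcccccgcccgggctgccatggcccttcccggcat
Psmd9: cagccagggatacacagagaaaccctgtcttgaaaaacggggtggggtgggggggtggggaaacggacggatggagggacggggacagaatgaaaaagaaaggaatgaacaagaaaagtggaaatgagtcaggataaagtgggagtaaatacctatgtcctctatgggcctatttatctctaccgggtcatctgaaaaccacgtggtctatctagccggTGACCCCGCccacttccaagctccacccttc
Psmd12: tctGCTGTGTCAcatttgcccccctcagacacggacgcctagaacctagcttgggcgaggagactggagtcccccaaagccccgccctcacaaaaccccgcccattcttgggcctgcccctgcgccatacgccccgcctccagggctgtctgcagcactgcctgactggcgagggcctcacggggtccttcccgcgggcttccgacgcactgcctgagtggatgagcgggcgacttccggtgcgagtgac

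The promoter of Psmd4, the single gene that passed the test described further on, held no such core. It held a CCAAT box, read as ATTGG on this strand and set in capitals, 95 to 91 bases before the start (chr3:95042615-95042864, minus strand). CCAAT stood in 13 of the 30 promoters (43.3%), against 37.5% of all genes.
Psmd4: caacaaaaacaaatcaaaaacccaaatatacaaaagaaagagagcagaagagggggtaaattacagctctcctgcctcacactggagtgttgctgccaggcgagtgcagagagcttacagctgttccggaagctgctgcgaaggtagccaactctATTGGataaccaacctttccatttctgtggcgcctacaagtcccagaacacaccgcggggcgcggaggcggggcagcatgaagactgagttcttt

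Another sequence was the paired half-site of nuclear respiratory factor 1 (GCGCA, any base, then GCGC), searched on both strands. It stood in 6 of the 30 promoters (20.0%), those of Psma2, Psma3, Psma4, Psmc4, Psmc5 and Psmd14, against 4.23% of all genes and 7.00% of those with a probe set. The element of the estrogen-related receptors, TNAAGGTCA, was found in 1 promoter (3.33%, against 1.30% of all genes), that of Psmc3ip, which is not a subunit.

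The array medians lay between 220.9 and 242.7. Ppargc1b, the siRNA's target, read 2850 and 3162 in wild type, 1862 and 2302 in knockout-control and 534 and 224 in knockdown (knockdown against knockout-control, limma adjusted p = 0.0220). Ppargc1a, the gene deleted in both knockout groups, still gave 767 and 830.4 in knockout-control against 1338 and 1319 in wild type, and no source used here says where its probes lie relative to the deletion. The cells kept the adipocyte markers Fabp4 and Adipoq at intensities of 9523 or more on all 6 arrays, and none of the 5 adipocyte markers measured was called in any comparison. Of 8 brown adipocyte markers, 2 fell between wild type and knockout-control and 4 between knockout-control and knockdown, and the summed level of the list was 26155 to 26514, 20514 to 20575 and 7705 to 9830 in the 3 groups. Of the 3 preadipocyte and fibroblast markers tested, Dlk1 rose between knockout-control and knockdown (1.82 ± 0.18 on the log2 scale, limma adjusted p = 0.00696), Pdgfra rose from wild type to knockdown (0.90, limma adjusted p = 0.0111), and the collagen gene Col1a1 fell from wild type to both knockout groups (-0.76 and -0.72, limma adjusted p = 0.0286 and 0.0261). Wild-type and knockout cells further differed in sex-linked transcripts: Eif2s3y, a Y-linked gene, read 872.4 and 960.5 in wild type and at most 6.25 in the other cells, so these comparisons also set 2 lines of different origin side by side. What part any of these differences has in the proteasome values was not tested, and in such bulk RNA a change in the share of cells of one kind and a change in RNA per cell cannot be told apart.

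**Figure D1:**
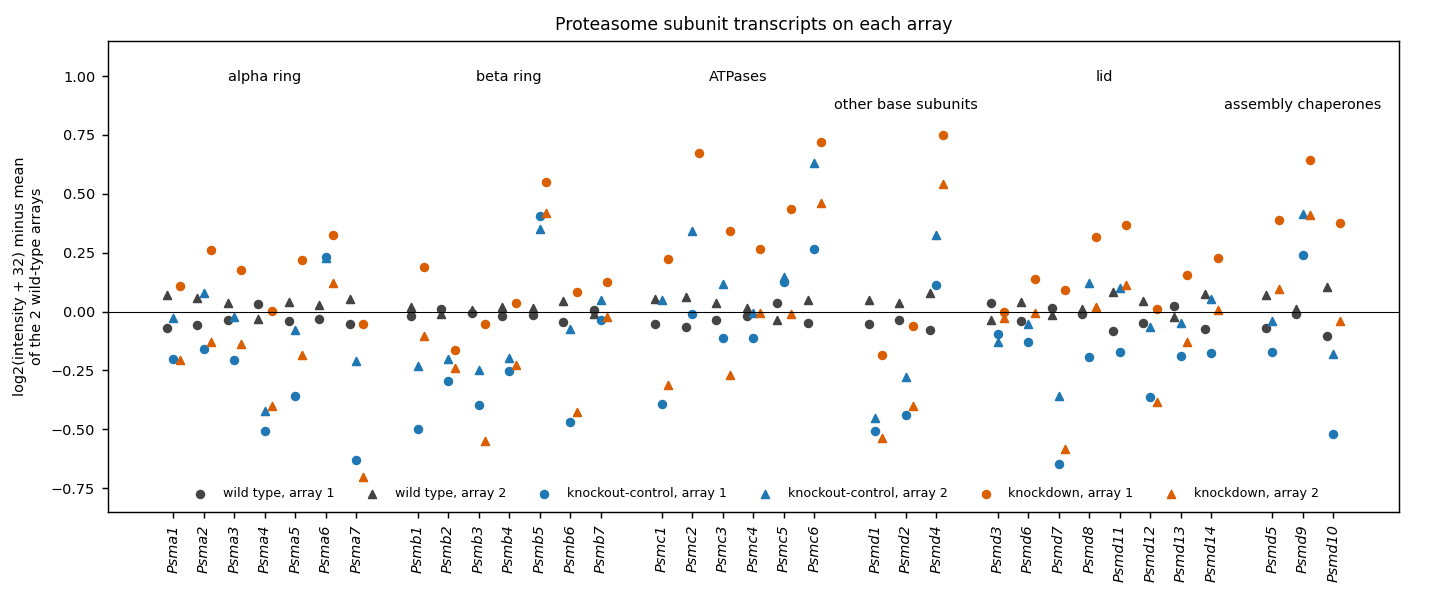
Log2 intensity of the 34 subunit and chaperone genes on each of the 6 arrays, minus the mean of the 2 wild-type arrays (vertical axis, log2 units), ordered by position in the complex; circles are array 1 and triangles array 2 of each group. All values lay between -0.70 and 0.75, and the orange circles of knockdown array 1 stand above the orange triangles of knockdown array 2 for each of the 33 genes read on both.

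Between wild type and knockout-control, the cells differ in PGC-1α and in line of origin, and these cannot be told apart. Of these 2 groups, the labels name an siRNA for knockout-control only. None of the 35 genes was called at a limma adjusted p under 0.05, where 6.05% of all genes tested were. At an unadjusted p under 0.05 there were 2 genes higher (Psmb5, Psmc6) and 2 lower (Psma4, Psmd1), against 9.17% and 12.0% of all genes in these directions, and the lowest adjusted p was 0.132. Log2 fold changes ran from -0.50 (Psmd7) to 0.45 (Psmc6), 25 of the 35 were negative, and their median was -0.11 against 0.00 for all genes. For 34 of the 35 the whole 95% interval lay within 2-fold in either direction, as it did for 88.7% of all genes. It lay within 1.5-fold for 19 of the 35, against 48.7% of all genes. The groups did not overlap for 7 genes that were higher and 16 that were lower in knockout-control, where 28.0% and 30.1% of all genes separated in those directions. Left out in turn, wild-type array 2, knockout-control array 1 and knockout-control array 2 moved the median to -0.05, -0.03 and -0.19. Without either knockdown array, whose values enter the spread only, Psma4 and Psmd1 were called lower (limma adjusted p = 0.0415 and 0.0385), where 13.1% of all genes were called in that fit.

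Between knockout-control and knockdown, which differ in the siRNA, again none of the 35 genes was called, where 0.835% of all genes were. At an unadjusted p under 0.05 there were 4 genes higher (Psmb1, Psmc2, Psmd4, Psmd10) and none lower, against 5.93% of all genes higher and 8.21% lower, and the lowest adjusted p was 0.271. The signs were nearly uniform, with 33 of 35 positive, but the sizes were small: the median was 0.13 against -0.01 for all genes, and all 35 intervals lay within 2-fold (93.4% of all genes). Groups did not overlap for 9 genes, all higher in knockdown, of 34 read on both arrays (17.1% of all genes were higher and 21.4% lower without overlap). Under quantile normalization and median scaling, 34 and 35 of the 35 genes were positive. Their medians were then 0.22 and 0.20, against 0.05 and 0.07 for all genes. Set against the wild-type mean, all genes tested had medians of 0.04 and -0.10 on knockdown arrays 1 and 2. With intensities as deposited, the members' positive signs and their median changed with the array left out. Without knockdown array 1 the median was -0.0065 with 16 of 34 positive, and without knockdown array 2 it was 0.30 with 35 of 35 positive. Without knockout-control array 1 it was 0.07 with 23 of 35 positive, and without knockout-control array 2 it was 0.23.

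Between wild type and knockdown, cells without PGC-1α and with reduced PGC-1β were compared with cells holding both. One gene of the 35 rose, Psmd4, and none fell, where 10.0% of all genes were called in either direction. At an unadjusted p under 0.05 there were 5 genes higher (Psmb5, Psmc2, Psmc6, Psmd4, Psmd9) and none lower, against 10.8% of all genes higher and 14.7% lower. The median log2 fold change was 0.04 against -0.03 for all genes, 22 of the 35 were positive, and 33 intervals lay within 2-fold (85.6% of all genes). The groups did not overlap for 8 genes that were higher and 5 that were lower, of 34, where 24.6% and 30.4% of all genes separated. The calls and the median differed with each knockdown array left out. Without knockdown array 1 the members' median was -0.12, and without knockdown array 2 it was 0.22. On the knockdown array that remained in each case, all genes tested had medians of -0.10 (array 2) and 0.04 (array 1) against the wild-type mean. Without wild-type array 1 the median was 0.02. The 3 comparisons share arrays, so a gene's values in them are not independent.

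**Figure D2:**
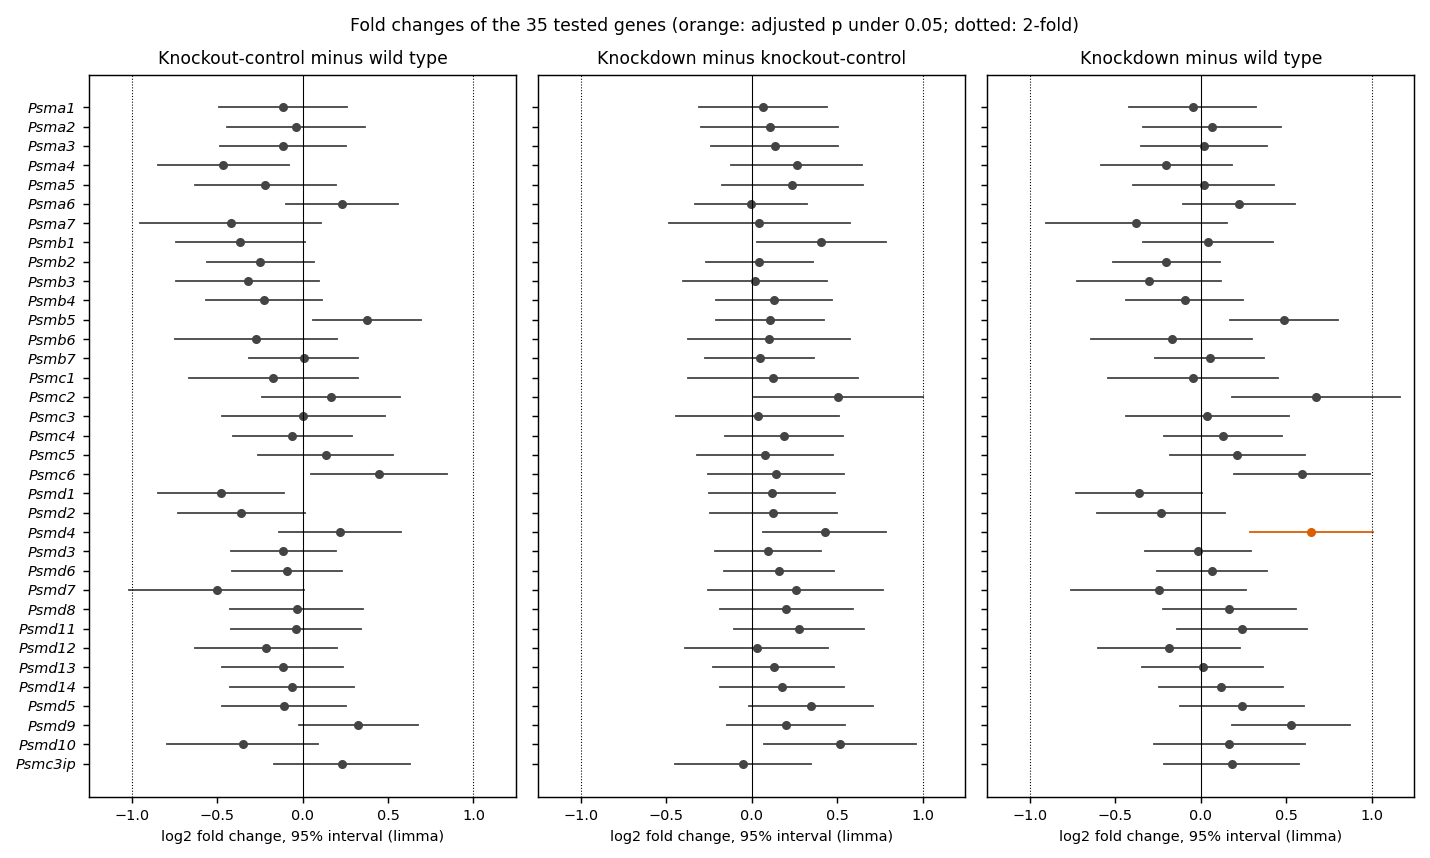
Log2 fold changes of the 35 tested genes (points) with limma's 95% intervals (lines) in the 3 comparisons; dotted lines mark 2-fold and orange marks an adjusted p under 0.05. Psmd4 in knockdown minus wild type is the single orange point, and knockdown minus knockout-control has 33 of 35 points to the right of 0.

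In the α ring, the entrance of the core, 6 of the 7 genes had negative log2 fold changes between wild type and knockout-control, and none passed the test. Psma4 read 4235 and 4059 in wild type, 2911 and 3082 in knockout-control, and 4148 and 3128 in knockdown. Its knockout-control arrays lay below both other groups (log2 fold change -0.46, 95% interval -0.85 to -0.08, limma adjusted p = 0.156 against wild type). Psma7 gave 2669 and 2870 in wild type, 1777 and 2386 in knockout-control and 2668 and 1691 in knockdown, so that 1 knockdown array was at the lower edge of wild type and the other far below it (-0.38 against wild type, interval -0.91 to 0.15, limma adjusted p = 0.359). Psma6 went the other way: 4450 and 4638 in wild type were below the 5333 and 5321 of knockout-control and the 5706 and 4943 of knockdown. For Psma6 the change between the knockout groups was -0.00, with an interval of -0.33 to 0.32 (limma adjusted p = 0.993).

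In the β ring, 5 of the 7 genes were negative between wild type and knockout-control (median -0.25) and all 7 positive between knockout-control and knockdown (median 0.10), with no call. Psmb5, which carries the chymotrypsin-like activity, was the only catalytic gene of the 3 whose groups did not overlap in any comparison. It read 3324 and 3398 in wild type, 4463 and 4300.4 in knockout-control, and 4937 and 4508 in knockdown, each group above the one before. Its log2 fold change was 0.38 ± 0.14 (SE) in the first step and 0.49 ± 0.14 from wild type to knockdown, a 1.40-fold difference with an interval of 0.17 to 0.80 that missed the threshold over all genes (limma adjusted p = 0.160 and 0.0626). Psmb6, the caspase-like subunit, read 3383 and 3604 in wild type, 2516 and 3313 in knockout-control, and 3701 and 2591 in knockdown. Its arrays differed more within each knockout group than the group means did, and no interval excluded 0 (-0.74 to 0.20 in the first step, limma adjusted p = 0.518). Psmb7, the trypsin-like subunit, was the most even of the 3, at 5437 and 5372, then 5269 and 5584, then 5899 and 5321. Its log2 fold changes of 0.01 and 0.05 against wild type had intervals of -0.31 to 0.33 and -0.27 to 0.37. Psmb3, a structural β subunit, read 2688 and 2712 in wild type, 2045 and 2267 in knockout-control and 2602 and 1833 in knockdown (-0.30 from wild type to knockdown, limma adjusted p = 0.354).

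The inducible counterparts, which replace the standard catalytic subunits in the immunoproteasome, gave another pattern on the same arrays. Psmb8, the counterpart of Psmb5, read 1733 and 1571 in wild type, 83.8 and 116 in knockout-control and 301 and 174 in knockdown. Psmb9, the counterpart of Psmb6, read 2900 and 2715, then 263 and 361, then 511 and 386. Both fell between wild type and knockout-control (-3.69 and -3.06 on the scale of log2(intensity + 32), limma adjusted p = 0.000141 for each). Psmb8 lay below the level of the dim-gene filter on both knockout-control arrays, so the size of its fall depends on the added 32 and is not a measured fold. Psmb10, the counterpart of Psmb7, read 1483 and 1465, then 1106 and 1162, then 1415 and 1200, and was not called (-0.37, limma adjusted p = 0.195). Levels of different probe sets cannot be set against each other, so these values do not give the share of immunoproteasome in the cells.

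**Figure D3:**
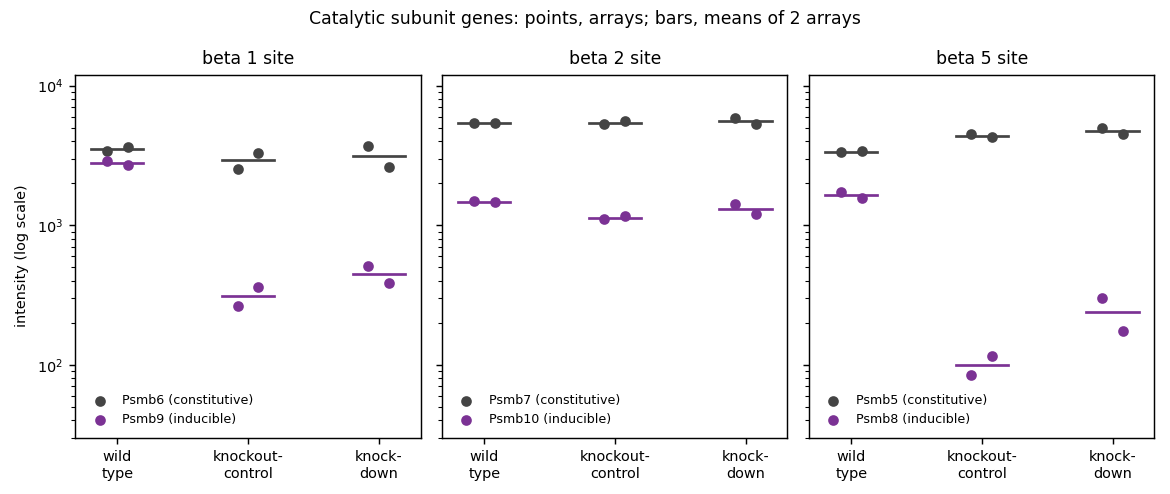
Intensity (log axis) of each standard catalytic gene and its inducible counterpart in the 3 groups; points are arrays and bars the means of 2 arrays. Psmb8 and Psmb9 drop from at least 1571 in wild type to at most 511 in both knockout groups, while Psmb6, Psmb7 and Psmb5 stay between 2516 and 5899 throughout.

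Among the ATPases of the base, 4 of 6 were positive between wild type and knockout-control (median 0.07) and all 6 between knockout-control and knockdown (median 0.13), with no call. Psmc6 read 2497 and 2680 in wild type, 3117 and 4024 in knockout-control and 4276 and 3572 in knockdown. Both knockout groups stood above wild type and overlapped each other (0.45 ± 0.17 and 0.59 ± 0.17 against wild type, limma adjusted p = 0.185 and 0.0708). Psmc2 read 2297 and 2512 in wild type, 2387 and 3051 in knockout-control and 3849 on knockdown array 1. Its cell for knockdown array 2 holds no number, so its differences of 0.51 from knockout-control and 0.67 from wild type rest on 1 array (limma adjusted p = 0.339 and 0.0925). A dimmer probe set of Psmc2, read on all 6 arrays, gave smaller log2 differences of 0.27 from knockout-control and 0.42 from wild type. On it, the knockdown values of 3278 and 2117 overlapped the knockout-control values of 1884 and 2510. These knockdown values lay above the wild-type values of 1874 and 2058. The other 4 ATPase genes had log2 fold changes between -0.17 and 0.21 in the 3 comparisons.

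The 3 remaining base subunits did not go together. Psmd4, a ubiquitin receptor of the proteasome, read 2259 and 2527 in wild type, 2588 and 3002 in knockout-control and 4041 and 3495 in knockdown. The 3 groups did not overlap, and the rise from wild type to knockdown was 1.57-fold (0.65 ± 0.16, interval 0.29 to 1.01, limma adjusted p = 0.0373). Neither step alone was called (0.22, limma adjusted p = 0.487, and 0.43, limma adjusted p = 0.271). Psmd1, the large scaffold subunit, read 2314 and 2486 in wild type, 1679 and 1747 in knockout-control and 2108 and 1641 in knockdown. Both knockout groups were below wild type without overlap (-0.48, interval -0.85 to -0.11, limma adjusted p = 0.132, and -0.36, limma adjusted p = 0.205). Psmd2, the other scaffold subunit, had -0.36 and -0.23 in the same 2 comparisons (limma adjusted p = 0.254 and 0.423).

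The call of Psmd4 was fragile. It was kept in 10 of 19 settings, the reported one included. It was lost when the mean of its probe sets replaced the brightest (0.43, limma adjusted p = 0.109), with no filter on dim genes (0.098) and in the fit of wild type and knockdown alone (0.0568). The settings are not all distinct, since leaving out either knockout-control array gives the same result as that last fit. Of the 6 fits that left out 1 array, only the one without knockdown array 2 kept it (0.0279). Without wild-type array 1 the adjusted p was 0.295, without wild-type array 2 it was 0.172, without either knockout-control array 0.0568 and without knockdown array 1 0.0593. Its 3 probe sets had log2 differences of 0.65, 0.64 and 0.01 between wild type and knockdown. Psmc6 and Psmd9 were split in the same way: the dimmer probe sets of Psmc6 gave -0.06 and -0.14 where the brightest gave 0.59, and that of Psmd9 gave 0.04 where the brightest gave 0.53. Over the whole family, 19 genes had several probe sets above the filter, and their signs disagreed in 7 genes between wild type and knockout-control, in 6 between knockout-control and knockdown and in 8 between wild type and knockdown. No source used here says which transcripts each probe set reads.

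**Figure D4:**
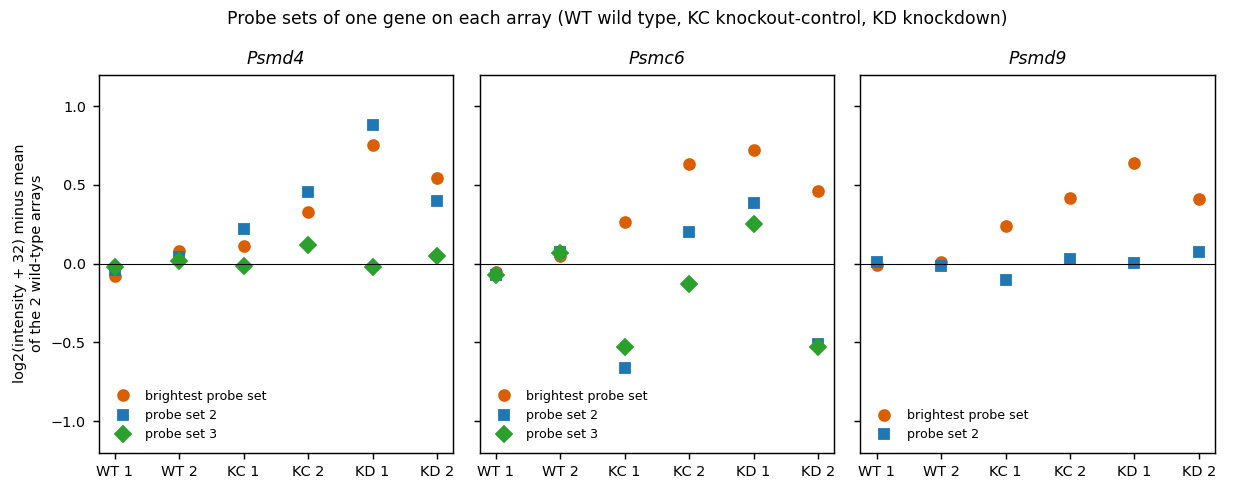
Log2 intensity on each array, minus the mean of the 2 wild-type arrays, for the probe sets above the filter of Psmd4, Psmc6 and Psmd9. In Psmd4 the brightest and the second probe set climb together while the third stays near wild type; in Psmc6 and Psmd9 only the brightest stays above wild type on all 4 knockout arrays.

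All 8 lid genes were negative between wild type and knockout-control (median -0.10) and all 8 positive between knockout-control and knockdown (median 0.17), and none was called. Psmd7, the partner of the deubiquitinase Psmd14, had the lowest ratio of the 35 tested genes in the first comparison. It read 1285 and 1257 in wild type, 801 and 983 in knockout-control and 1357 and 837 in knockdown. Knockout-control was below wild type without overlap, while the 2 knockdown arrays enclosed all other values but 1 (-0.50, interval -1.01 to 0.01, limma adjusted p = 0.243). A dimmer probe set of Psmd7 above the filter gave 0.31 in this comparison, and the mean of its probe sets gave -0.10. Psmd14 itself had -0.06, 0.18 and 0.12 in the 3 comparisons. The other 6 lid genes lay between -0.21 and 0.28.

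The 3 assembly chaperones, which help the base to form and are not part of the finished complex, had the highest median of any role between knockout-control and knockdown (0.35), again with no call. Psmd10, known as gankyrin and the only member on the X chromosome, read 447 and 522 in wild type, 327 and 423 in knockout-control and 636 and 469 in knockdown. Its knockdown arrays lay above knockout-control and overlapped wild type (0.52 ± 0.19 between the knockout groups, interval 0.07 to 0.96, limma adjusted p = 0.279). Psmd9 read 663 and 674 in wild type, 794 and 902 in knockout-control and 1061 and 899.96 in knockdown, with both knockout groups above wild type (0.33 and 0.53, limma adjusted p = 0.262 and 0.0644). Psmd5 had -0.11, 0.35 and 0.24 in the 3 comparisons.

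Of the genes outside the complex, Psmc3ip read 535 and 616 in wild type, 645 and 716 in knockout-control and 753 and 569 in knockdown, with overlap of the knockout groups (-0.05, limma adjusted p = 0.930). Psma8 read 62.9 and 78.7, then 41.2 and 20.1, then 76.5 and 55.8. Psmb11 read 167 and 164, then 105 and 116, then 86.3 and 114, and neither was tested.

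In both knockout groups the members' median shifted more between the 2 arrays of the group than between the group means. Set against the wild-type mean, the median of the 34 subunit and chaperone genes was -0.04 and 0.04 in wild type (arrays 1 and 2), -0.19 and -0.03 in knockout-control and 0.20 and -0.13 in knockdown. All genes tested moved in the same direction between the arrays of each group but less, with medians of -0.01, 0.01, -0.04, 0.03, 0.04 and -0.10 on the same arrays. In knockdown, all 33 genes read on both arrays were higher on array 1, where 26.0% of all genes were lower on it. In knockout-control, 31 of 34 were lower on array 1, as were 69.6% of all genes. The numbers of empty cells in the table also differed between arrays. There were 334 and 106 in knockout-control and 27 and 360 in knockdown, against 17 and 26 in wild type. Cells marked null, also treated as missing, were more numerous. They numbered 900 and 841 in wild type, 1221 and 1073 in knockout-control and 566 and 684 in knockdown. The part of these cells in the shifts was not tested.

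**Figure D5:**
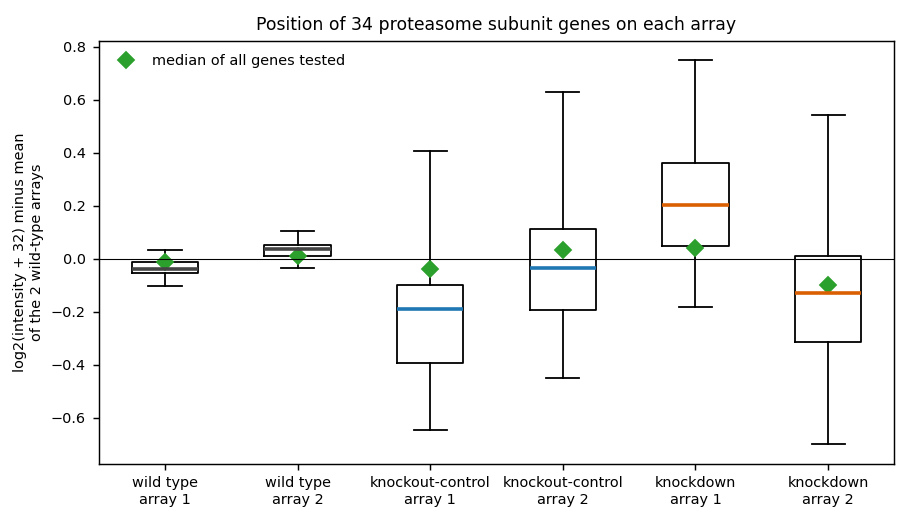
Distribution of the 34 subunit and chaperone genes on each array as log2 intensity minus the mean of the 2 wild-type arrays; boxes span the quartiles, coloured lines are medians, whiskers reach the lowest and highest gene, and green diamonds are the median of all genes tested. The knockdown arrays lie on opposite sides of 0, with medians of 0.20 and -0.13.

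The genes that build, assist or control the proteasome were taken from lists. Of the activators and inducible subunits, 7 of 8 were on the array, and beside Psmb8 and Psmb9 none was called in any comparison, including the activator subunit Psme1 (-0.05 and -0.07 against wild type) and Psme4 (0.46 in the first step, limma adjusted p = 0.119). None of the 5 dedicated assembly factors was called. Among them Psmg1, which helps to assemble the α ring, came nearest, with 2385 and 2464 in wild type, 1162 and 1495 in knockout-control and 1800 and 1206 in knockdown (-0.86 from wild type to knockout-control, limma adjusted p = 0.0504). None of 11 measured proteasome-associated genes was called, Uchl5 having the highest value (0.59 in the first step, limma adjusted p = 0.117). Nfe2l1, which encodes the factor named above, read 1859 and 1901 in wild type, 2080 and 2415 in knockout-control and 2905 and 2203 in knockdown. Its knockout groups overlapped and neither was called against wild type (0.25 and 0.42, limma adjusted p = 0.470 and 0.169), and the 3 other tested genes of its list were not called. Of the ubiquitin genes and E1 enzymes only Uba6, an E1 enzyme, was measured under its symbol. It rose from wild type to knockdown (246 and 313 to 463 and 428, 0.62, limma adjusted p = 0.0440).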

How the data were processed

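Total RNA from 6 samples was labelled with biotin and read on 1-colour arrays, as the labels state. The table that the authors deposited holds linear intensity values of 45037 probe sets, 1 for each array. How probes were summarised, scaled and corrected for background is not given in the sources used here. Intensities were used as deposited, with array medians of 220.9 to 242.7. The arrays of a group were not level, however. Over all genes tested, the median log2 difference of array 1 minus array 2 was 0.20 for knockdown and -0.12 for knockout-control. The choice mattered for the calls of knockdown against wild type. There, the 1 called member became 4 with median scaling and 6 with quantile normalization.

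Probe sets were named from the platform annotation: 34945 had 1 gene symbol, 932 several and 9160 none. The brightest probe set with 1 symbol stood for each gene. Cells holding no number were treated as missing. Values were taken as log2(intensity + 32), which understates changes of dim genes. A filter at percentile 40 of mean log2 intensity kept 13658 of 18193 genes (13644 to 13652 testable in each comparison). The fit in limma 3.58.1 (R 4.3.3) used group means over all 6 arrays, and p-values were adjusted by Benjamini-Hochberg over all genes tested. A gene was called at an adjusted p under 0.05. The procedure was tested on simulated data.

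Genes with values on every array were, by rule, called members, the 3 highest and 3 lowest in each comparison, Psmb5, Psmb6, Psmb7 and those below the filter. Other genes (Psmd2, Psmd5, Psmd14, Psme1, Psme4, Psmg1, Uchl5) were named after their values were seen. The members and lists were chosen with earlier results of these data known. Of the marker lists, no macrophage, endothelial or skeletal muscle gene was called in any comparison. Promoter sequences came from RefSeq. Intervals are limma's 95% intervals for single comparisons. If the replicates share a culture, p-values measure technical spread only.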

Additional observations from a re-analysis of the deposited data

How the results depend on the processing

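Each count and median was recomputed in 18 other settings, and single genes in those where they had a value (Psmc2, with a missing cell, not in all). Some settings coincide: leaving out an array of the group not compared gives the same result as the fit of only the 2 groups compared. No direction of a called value turned. The count of called members against wild type in knockdown, 1 as reported, was 0 with no filter, with the mean of probe sets, with the replicate block and in the fit of only the 2 groups compared. It was 3 under trend and robust eBayes or when the filter was moved to percentile 60 (12.2% and 13.6% of all genes called), 4 with median scaling (12.5%) and 6 with quantile normalization (16.9%), and 0 to 4 with 1 array left out. In knockout-control against wild type, 0 as reported, it was 1 with quantile normalization (12.1% of all genes), 2 with only the 2 groups compared (13.1%) and 0 to 2 with 1 array left out. In knockdown against knockout-control it was 0 in each fit with 1 array left out. The 3 medians ranged from -0.19 to -0.03, from -0.0065 to 0.30 and from -0.12 to 0.22 with 1 array left out. They kept their signs under quantile normalization (-0.05, 0.22 and 0.18) and median scaling (-0.13, 0.20 and 0.09). Where a fit left a group with 1 array, that array was assumed to vary like the others. The causes were not tested.

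Same-numbered deviations correlated at 0.20, -0.15 and -0.50 over 13344 genes, which does not settle whether replicate numbers pair the samples. With the replicate block, 0 members were called in each comparison. With the knockdown numbers crossed, chosen after seeing the data, 2, 1 and 4 members were called, with 15.0%, 5.64% and 20.7% of all genes.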
